A study of Mus musculus with 8 samples.

Results

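The mRNAs of 10 genes of the translation machinery or partners were followed in mouse embryonic stem cells (ESCs) treated to deplete ZZZ3 or YEATS2. These mRNAs are classed as 5′ terminal oligopyrimidine (TOP) mRNAs but do not code for ribosomal proteins. They are *Eef1a1*, *Eef1b2*, *Eef1d*, *Eef1g*, *Eef2*, *Tpt1*, *Pabpc1*, *Npm1*, *Nap1l1* and *Hnrnpa1*. The genes were taken by name, with earlier results of these data known, and make up 10 of the 55401 genes counted. All 10 were among the 17532 genes that passed the filter on low counts and were tested.

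A TOP mRNA begins with a C at the cap, followed by an unbroken run of pyrimidines (C or T in the DNA). Translation of such mRNAs follows the activity of the kinase mTOR and binding of the protein LARP1, and the class holds the ribosomal proteins along with several elongation factors and RNA-binding proteins. Dividing cells such as ESCs spend much of their translation on these mRNAs, so the class is often read as a whole when growth changes.

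ZZZ3 and YEATS2 belong to ATAC, a chromatin coactivator complex with histone acetyltransferase activity. RNA was sequenced from 8 samples, which the labels name as 2 Control, 3 Zzz3 auxin and 3 Yeats2 auxin samples. In the auxin samples ZZZ3 or YEATS2 carried an auxin-inducible degron, a tag that sends a protein for degradation by way of the plant protein TIR1, and auxin was given at 500 µM for 24 h. All samples are described as grown with serum, leukaemia inhibitory factor and 2 kinase inhibitors (CHIR99021 and PD0325901), and as kept in G418 to select for Tir1. The labels give neither the line nor the treatment of the Control samples, so a depletion cannot be told apart from auxin exposure or from a difference of line. They name polyA RNA as the molecule, whereas the protocol describes depletion of ribosomal RNA from total RNA. They also do not say whether replicates came from separate cultures, and P values therefore measure only the spread between these samples.

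To see how far the annotation gives these genes the start that defines their class, the first bases of their transcripts were read from the GENCODE vM21 transcripts (GRCm38). For 6 of the 10 genes at least 1 annotated transcript began with C and 4 or more further pyrimidines. The first 30 bases of the transcript with the longest such run are shown 5′ to 3′ for 5 of these genes, with the run in capitals.
Pabpc1 (Pabpc1-201, chr15:36608944-36608973, minus strand): CCCCTTCTCCCCggcggttagtgctgagag
Eef1d (Eef1d-217, chr15:75909277-75909306, minus strand): CTCTCCTTTgcagtcctgagctcgcagttc
Tpt1 (Tpt1-206, chr14:75845331-75845360, plus strand): CTTTTCCgcccgctcccccctccccccgcg
Nap1l1 (Nap1l1-207, chr10:111473227-111473256, plus strand): CTTTTTTagcgccatctgctcgcggcgccg
Hnrnpa1 (Hnrnpa1-202, chr15:103240454-103240483, plus strand): CTTTCTgctctttgacgctgccgaggaagc
Among the 5 genes shown, the runs were 12 bases long in *Pabpc1*, 9 in *Eef1d*, 7 in *Tpt1* and *Nap1l1* and 6 in *Hnrnpa1*. The *Tpt1* transcript shown is annotated as a retained intron.

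In the other 4 genes the longest annotated run that opens with C lay inside the first 100 bases of a transcript and not at its start. It is shown in capitals, with the 10 bases before it. Only the first 100 bases were searched, so the capitals of *Eef1g* stop at that limit and its pyrimidines go on after them.
Eef1g (Eef1g-201, run from base 87, chr19:8967117-8967146, plus strand): ttccacactgCTCTCTCCTTTCCTcctccc
Npm1 (Npm1-202, run from base 61, chr11:33162993-33163022, minus strand): ttccgtccggCTTCTCCCacaccgaagtgc
Eef1a1 (Eef1a1-201, run from base 54, chr9:78481652-78481681, minus strand): cttggacgttCTTTTTCgcaacgggtttgc
Eef2 (Eef2-201, run from base 16, chr10:81176636-81176665, plus strand): cgtcagcggtCTCTTCCgccgcagccgccg
The annotated start of Eef1g-201 itself opened with T and a run of 5 pyrimidines. It is shown because *Eef1g* gave the lowest P value of the 10 genes in both depletions.
Eef1g (annotated start of Eef1g-201, chr19:8967041-8967070, plus strand): TTTCCaactcagcggggctgtagacggaac
Annotated starts need not be the starts used in ESCs, and none was measured here. By the same rule, 1869 of 21951 protein-coding genes (8.51%) had such a start. The share was 11.5% among the 13566 protein-coding genes with as many annotated transcripts as these genes have (3 to 18), 44.3% among ribosomal protein genes (35 of 79) and 60.0% among the 10 genes.

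The libraries held 14315120 to 27884704 reads assigned to genes, and 45.6% to 51.7% of the tallied reads were not uniquely aligned. *Zzz3* mRNA itself fell in Zzz3 auxin by 0.95 on the log2 scale (standard error of the fold change, SE, 0.14, edgeR adjusted P = 0.0187). For *Yeats2* mRNA in Yeats2 auxin the log2 fold change (FC) was -0.32 (SE 0.26, edgeR adjusted P = 0.605). Since the degron acts on the protein, neither value measures the depletion. No protein was measured in these data, and "depleted" here names the treatment. The summed level of the ESC markers was 4715 to 5511 CPM (counts scaled to the same library total), and that of 18 markers of other cell types 35.3 to 53.5 CPM, with at most 2 of them at 0 in any library. Among the ESC markers, *Pou5f1*, *Nanog* and *Sox2* had means of 348, 754 and 339 CPM in Control. *Pou5f1* had a log2 FC of 0.62 with ZZZ3 depleted (edgeR adjusted P = 0.106) and 0.55 with YEATS2 depleted (edgeR adjusted P = 0.213), and *Nanog* of -0.22 and -0.28 (edgeR adjusted P = 0.319 and 0.325). Zzz3 auxin replicate 1 stood apart in *Dppa3* (17.4 CPM, against 2.47 to 4.43 in the other libraries), *T* (14 against 5.86 to 7.20), *Zscan4c* (3.03 against 0.148 to 0.660) and *Pax6* (2.80 against 0.289 to 1.00). Markers of other cell types did not all rise there. *Sox1* was at its lowest in that library (0.767 CPM, against 2.03 to 5.77 in the others). *Eomes*, at 6.64 CPM, lay within the range of the other libraries (5.07 to 9.77). Zzz3 auxin replicate 1 also had the lowest median of the 10 genes, -0.49 from the Control mean on the log2 CPM scale. Without it, their median log2 FC with ZZZ3 depleted was -0.24 and that of *Eef1g* -0.46, and the part of these markers in the results was not tested. Control replicate 1 and Zzz3 auxin replicate 3 lay at opposite ends of a GC trend: relative to all libraries, genes in the highest 20% of GC content differed from those in the lowest 20% by -0.61 and 0.45 on the log2 scale, against -0.09 to 0.17 in the other 6 libraries. Values without these 2 libraries are given where they change a result.

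The 10 genes together took 0.868% and 0.938% of assigned reads in Control, 0.803%, 0.903% and 0.954% with ZZZ3 depleted, and 0.850%, 0.900% and 0.841% with YEATS2 depleted. The groups overlapped in this share. Per length, in TPM (reads scaled by merged exon length and then to the same total in every library), *Eef1a1* was the highest with 3485 ± 218 in Control (SD, n = 2). *Npm1* came next with 2774 ± 514 TPM, then *Eef1b2* with 1522 ± 96.3 TPM and *Eef2* with 1341 ± 361 TPM. A wide step separated these from *Nap1l1* at 350.0 ± 99.5 TPM, *Pabpc1* at 301 ± 80.1 TPM, *Eef1g* at 262 ± 1.15 TPM, *Hnrnpa1* at 219.9 ± 80.5 TPM and *Eef1d* at 151 ± 19.1 TPM. *Tpt1* was the lowest at 18.7 ± 6.70 TPM. Neighbours in this order whose Control libraries overlapped were *Eef1b2* and *Eef2*, and each adjoining pair from *Nap1l1* down to *Eef1d*. The TPM of a gene depends on how many of its reads could be placed uniquely, which differed widely between these genes as described further on.

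**Figure D1:**
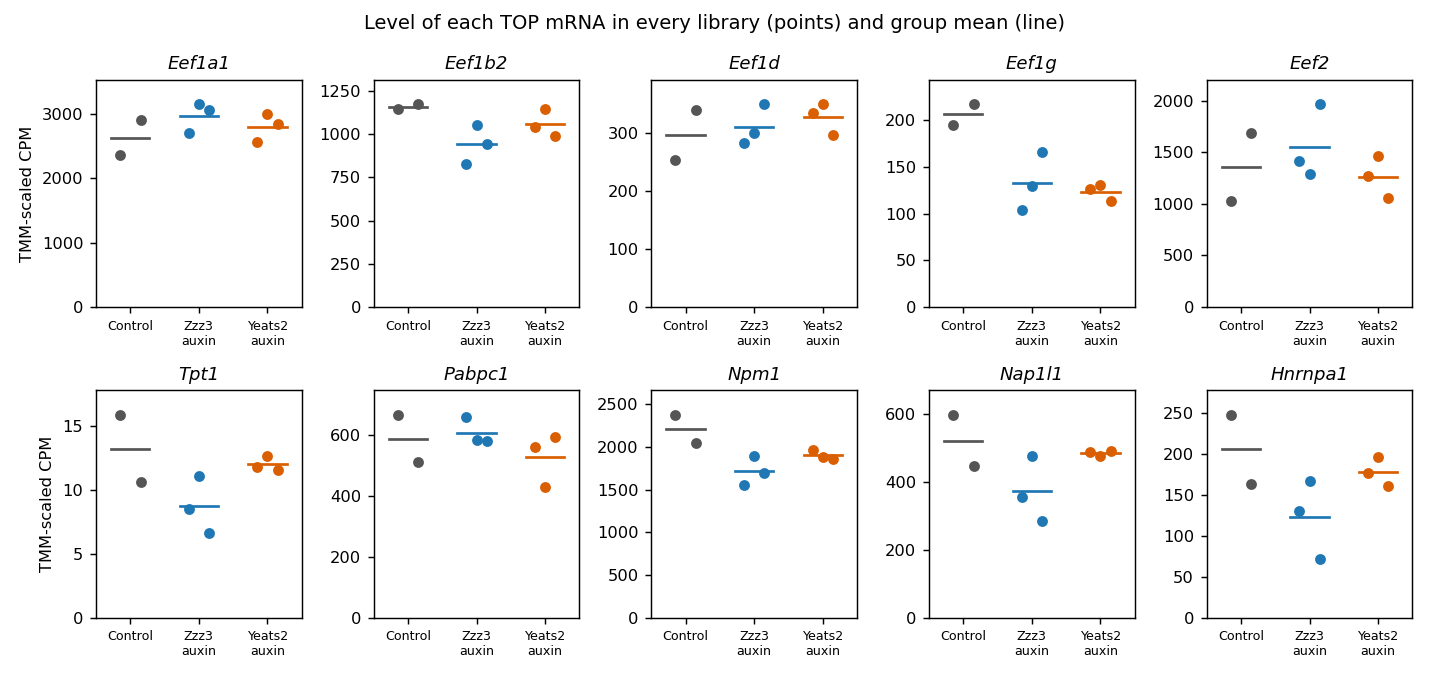
Each panel plots 1 gene, with scaled CPM (linear axis from 0) for every library as a point and the group mean as a line, by group (2 Control, 3 Zzz3 auxin, 3 Yeats2 auxin). Only Eef1b2, Eef1g and Npm1 have every depleted library below both Control libraries, and Eef1g lies at 195 and 217 CPM in Control and between 104 and 166 CPM in the depleted libraries.

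With ZZZ3 depleted, 0 of the 10 mRNAs passed edgeR's quasi-likelihood test at an adjusted P under 0.05, where 0.753% of all genes tested did. An unadjusted P under 0.05 was reached by 6 of the 10 (*Eef1b2*, *Eef1g*, *Tpt1*, *Npm1*, *Nap1l1* and *Hnrnpa1*, all with a negative log2 FC), against 21.7% of all genes. DESeq2, which called 7.47% of the genes it tested, called 1 of them, *Eef1g*. The median log2 FC of the 10 was -0.33, beside 0.01 over all genes, and it was -0.18 after correction for GC content and length. With YEATS2 depleted, 0 of the 10 passed in edgeR, where 0.445% of all genes did. An unadjusted P under 0.05 was reached by 1 of them, *Eef1g*, against 14.6% of all genes, and DESeq2 again called *Eef1g* alone, with 3.15% of its genes called. The median log2 FC was -0.13, beside -0.01 over all genes. Every depleted library lay below both controls for 3 of the 10 genes in each comparison (*Eef1b2*, *Eef1g* and *Npm1*), which is to be read against 18.9% and 21.0% of all genes. Every depleted library lay above both controls for 0 of the 10, against 16.8% and 19.3% of all genes. Both comparisons use the same 2 Control libraries. The data are relative levels of bulk samples, in which less RNA per cell and fewer cells of a type cannot be told apart.

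**Figure D2:**
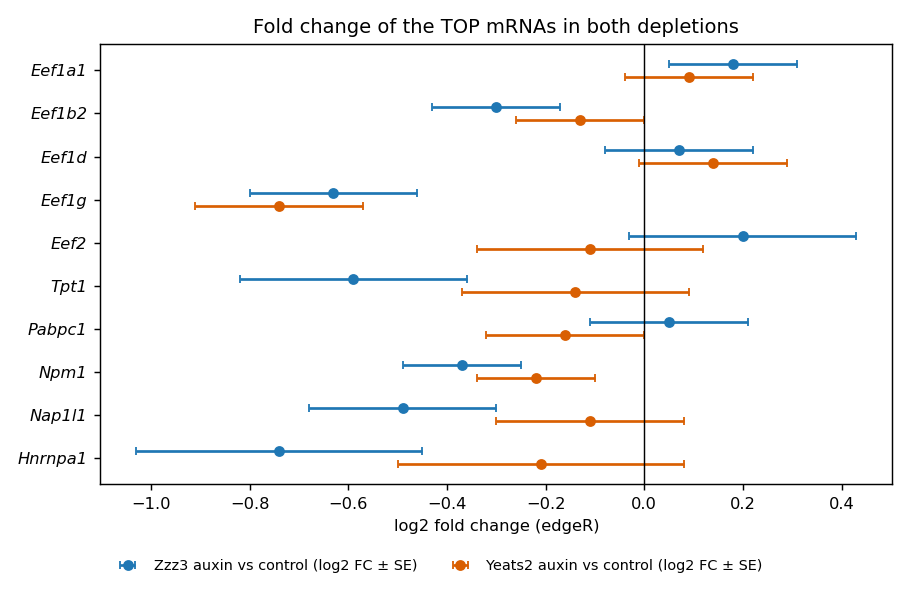
Points give the edgeR log2 fold change against Control (x axis) and bars its standard error for the 10 genes, in Zzz3 auxin (blue) and Yeats2 auxin (orange). Eef1g lies at -0.63 and -0.74, while Hnrnpa1, Tpt1 and Nap1l1 lie further below 0 in Zzz3 auxin than in Yeats2 auxin and Eef1a1 and Eef1d lie above 0 in both. No point passed an adjusted P of 0.05 in edgeR.

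The first group to describe is the eEF1 complex, which brings aminoacyl-tRNA to the ribosome. *Eef1g* encodes eEF1Bγ, a structural subunit of the exchange factor of that complex, and lies at chr19:8967041-8978479 on the plus strand (ENSMUSG00000071644). Its level was 195 and 217 CPM in Control, 104, 129 and 166 CPM in Zzz3 auxin, and 126, 131 and 113 CPM in Yeats2 auxin. All 6 depleted libraries lay below both Control libraries, and the Yeats2 auxin libraries were close to each other (123 ± 9.16 CPM, SD, n = 3). This gave a log2 FC of -0.63 in Zzz3 auxin (edgeR adjusted P = 0.0841) and of -0.74 in Yeats2 auxin (edgeR adjusted P = 0.0916), each with an SE of 0.17.

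Neither *Eef1g* value passed the adjusted threshold in edgeR, and both passed in DESeq2 (adjusted P = 0.0219 and 0.00848). After a correction of each library for GC content and length, *Eef1g* also passed in edgeR, with a log2 FC of -0.71 in Zzz3 auxin (adjusted P = 0.0453) and -0.80 in Yeats2 auxin (adjusted P = 0.0290). Under that correction, 0.359% and 0.262% of all genes were called lower. Over all 18 alternatives the log2 FC stayed between -0.89 and -0.46 with ZZZ3 depleted, and between -0.81 and -0.65 with YEATS2 depleted. The adjusted P of edgeR or DESeq2 ranged from 0.00105 to 0.497 and from 0.000174 to 0.519. Without Control replicate 1 and Zzz3 auxin replicate 3 the log2 FC was -0.89 (edgeR adjusted P = 0.0945) and -0.80 (edgeR adjusted P = 0.101). *Eef1g* was thus below Control under every one of these alternatives, while its call depended on the setting.

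*Eef1b2* encodes eEF1Bα, the subunit that exchanges GDP for GTP on eEF1A (chr1:63176825-63180486, plus strand). It was measured at 1145 and 1174 CPM in Control, 827, 1052 and 945 CPM in Zzz3 auxin, and 1039, 1145 and 989 CPM in Yeats2 auxin. The 6 depleted libraries lay below the controls, although Yeats2 auxin replicate 2 did so only just. Relative to Control, the log2 FC reached -0.30 with ZZZ3 depleted (edgeR adjusted P = 0.199) and -0.13 with YEATS2 depleted (edgeR adjusted P = 0.664), each with an SE of 0.13.

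*Eef1d*, which encodes the second exchange factor eEF1Bδ (chr15:75894205-75909556, minus strand), stood at 253 and 339.6 CPM in Control, 282, 299 and 349.6 CPM in Zzz3 auxin, and 334, 349.5 and 297 CPM in Yeats2 auxin. The groups overlapped. Both values were small, with a log2 FC of 0.07 after ZZZ3 depletion (edgeR adjusted P = 0.837) and of 0.14 after YEATS2 depletion (edgeR adjusted P = 0.700), each with an SE of 0.15.

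*Eef1a1* encodes eEF1A1, the GTPase that carries the tRNA (chr9:78478449-78489151, minus strand). Libraries held 2363 and 2894 CPM in Control, 2698, 3147 and 3063 CPM in Zzz3 auxin, and 2565, 2989 and 2836 CPM in Yeats2 auxin. Control replicate 1 was the lowest of all 8 libraries, and the groups overlapped through Control replicate 2. Log2 FCs of 0.18 with ZZZ3 depleted (edgeR adjusted P = 0.470) and 0.09 with YEATS2 depleted (edgeR adjusted P = 0.788) followed, each with an SE of 0.13.

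Because the 4 subunits serve 1 complex, counts of several pairs were also set against each other within each library, which needs no scaling between libraries. The counts of *Eef1g* were 17.0% and 18.5% of those of *Eef1b2* in Control, 12.6%, 12.3% and 17.6% with ZZZ3 depleted, and 12.2%, 11.4% and 11.4% with YEATS2 depleted. Zzz3 auxin replicate 3 lay within the Control range and the other 5 depleted libraries lay below it. Against *Eef1a1*, *Eef1g* stood at 8.24% and 7.49% in Control, 3.85%, 4.11% and 5.42% with ZZZ3 depleted, and 4.92%, 4.37% and 3.99% with YEATS2 depleted. Here every depleted library lay below both controls. Likewise *Eef1b2* stood at 48.5% and 40.6% of *Eef1a1* in Control, 30.7%, 33.4% and 30.8% with ZZZ3 depleted, and 40.5%, 38.3% and 34.9% with YEATS2 depleted, the highest Yeats2 auxin library being almost level with the lower control. The ratio of *Eef1d* to *Eef1b2* went the other way, with 22.1% and 28.9% in Control, 34.1%, 28.4% and 37.0% with ZZZ3 depleted, and 32.2%, 30.5% and 30% with YEATS2 depleted. All depleted libraries but Zzz3 auxin replicate 2 lay above both controls. Such ratios do not remove the GC trend of the libraries. The longest annotated transcripts have a GC content of 52.0% in *Eef1g*, 46.2% in *Eef1b2*, 47.4% in *Eef1a1* and 48.0% in *Eef1d*. The ratios were not tested, and no share over other gene pairs was taken.

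*Eef2* encodes the translocase eEF2, which moves the ribosome along the mRNA by a codon (chr10:81176631-81182498, plus strand). It was at 1027 and 1692 CPM in Control, 1412, 1291 and 1969 CPM in Zzz3 auxin, and 1267, 1464 and 1061 CPM in Yeats2 auxin. The 2 controls bracketed all Yeats2 auxin libraries and 2 of the 3 Zzz3 auxin libraries. With an SE of 0.23 for each, the log2 FC was 0.20 after ZZZ3 depletion (edgeR adjusted P = 0.659) and -0.11 after YEATS2 depletion (edgeR adjusted P = 0.862). Among the longest annotated transcripts of the 10 genes, that of *Eef2* has the highest GC content, 57.0%. Once libraries were corrected for GC and length, the value with ZZZ3 depleted was -0.09.

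*Pabpc1* encodes the cytoplasmic poly(A)-binding protein, which coats the mRNA tail and aids initiation (chr15:36595661-36609668, minus strand). Its levels were 665 and 509 CPM in Control, 658, 583 and 579.7 CPM in Zzz3 auxin, and 561, 427 and 591 CPM in Yeats2 auxin. All groups overlapped, with Yeats2 auxin replicate 2 the lowest library. Its log2 FC stood at 0.05 with ZZZ3 depleted (edgeR adjusted P = 0.895) and at -0.16 with YEATS2 depleted (edgeR adjusted P = 0.686), each with an SE of 0.16.

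The next 2 genes encode histone chaperones. *Npm1*, nucleophosmin, is an abundant nucleolar protein with a role in ribosome assembly (chr11:33152287-33163206, minus strand). Control libraries held 2379 and 2049 CPM, Zzz3 auxin libraries 1560.2, 1893 and 1701 CPM, and Yeats2 auxin libraries 1969, 1889.8 and 1859 CPM. Every depleted library lay below both controls, and the 3 Yeats2 auxin libraries lay close together. For *Npm1* the log2 FC came to -0.37 with ZZZ3 depleted (edgeR adjusted P = 0.127) and to -0.22 with YEATS2 depleted (edgeR adjusted P = 0.436), each with an SE of 0.12. The GC content of its longest annotated transcript is 42.4%, and correcting the libraries for GC and length gave -0.16 and -0.05.

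*Nap1l1* encodes a nucleosome assembly protein (chr10:111473223-111498150, plus strand). It was at 597 and 445 CPM in Control, 356, 476 and 284 CPM in Zzz3 auxin, and 488, 476 and 489.6 CPM in Yeats2 auxin. Zzz3 auxin replicate 2 lay between the controls and the other Zzz3 auxin libraries lay below them, while all Yeats2 auxin libraries lay between the controls. In Zzz3 auxin the log2 FC was -0.49 (SE 0.19, edgeR adjusted P = 0.172). In Yeats2 auxin it was -0.11 (SE 0.19, edgeR adjusted P = 0.829).

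*Hnrnpa1* encodes a nuclear RNA-binding protein that acts in splicing and mRNA export (chr15:103240432-103246692, plus strand). It was at 248 and 164 CPM in Control, 129.9, 167 and 72.1 CPM in Zzz3 auxin, and 177, 197 and 160.4 CPM in Yeats2 auxin. Zzz3 auxin replicate 3 was far below every other library, and both comparisons overlapped. With ZZZ3 depleted its log2 FC was -0.74 (SE 0.29, edgeR adjusted P = 0.175), the most negative of the 10 but with the widest error. With YEATS2 depleted it was -0.21 (SE 0.29, edgeR adjusted P = 0.772).

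*Tpt1* encodes the translationally controlled tumour protein TCTP, named for its regulation at the level of translation (chr14:75845093-75848525, plus strand). Only 15.9 and 10.6 CPM were counted in Control, 8.52, 11.1 and 6.63 CPM in Zzz3 auxin, and 11.8, 12.7 and 11.6 CPM in Yeats2 auxin. Zzz3 auxin replicate 2 reached above the lower control, and all Yeats2 auxin libraries lay between the controls. Fold changes on the log2 scale were -0.59 with ZZZ3 depleted (edgeR adjusted P = 0.174) and -0.14 with YEATS2 depleted (edgeR adjusted P = 0.816), with an SE of 0.23 for each.

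The negative values of *Tpt1*, *Nap1l1* and *Hnrnpa1* in Zzz3 auxin moved with the 2 libraries at the ends of the GC trend. Control replicate 1 was the highest of all libraries for each of these 3 genes and Zzz3 auxin replicate 3 the lowest, at -0.97, -0.86 and -1.49 from the Control mean on the log2 CPM scale. Without both libraries the log2 FC in Zzz3 auxin was -0.11 for *Tpt1*, -0.09 for *Nap1l1* and -0.13 for *Hnrnpa1*, and the median of the 10 genes was -0.17. With all libraries kept and corrected for GC and length, the values were -0.71 for *Tpt1*, -0.26 for *Nap1l1* and -0.58 for *Hnrnpa1*. The longest annotated transcript of *Tpt1* has a GC content of 53.1%, against 39.8% for that of *Nap1l1* and 44.1% for that of *Hnrnpa1*. The part of the GC trend in these results was not tested.

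**Figure D3:**
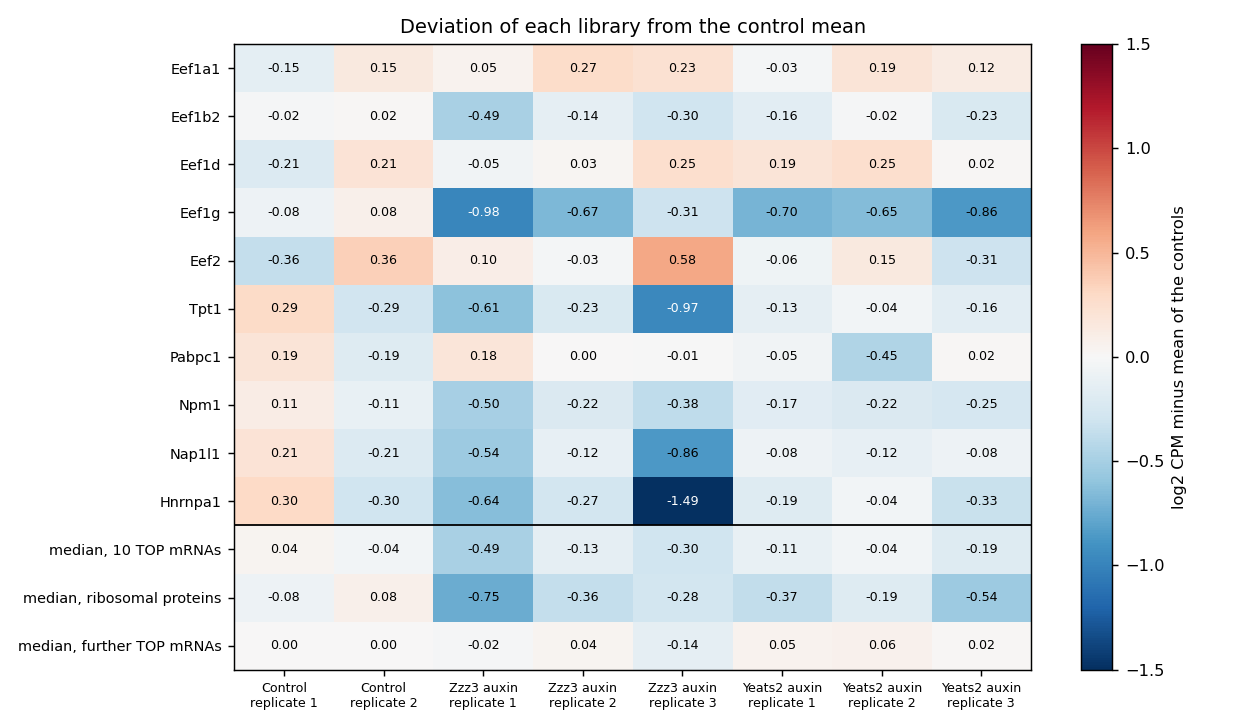
Each cell gives the log2 CPM of a library (columns) minus the mean of the Control libraries for a gene or for the median of a gene list (rows), coloured from blue (lower) to red (higher). Eef1g is below Control in all 6 depleted libraries, whereas Hnrnpa1, Tpt1 and Nap1l1 are lowest in Zzz3 auxin replicate 3, where Eef2 is at 0.58.

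Across the 8 libraries the 10 mRNAs did not share 1 profile. Pearson r of log2 CPM was 0.98 between *Tpt1* and *Nap1l1*, 0.97 between *Tpt1* and *Hnrnpa1* and 0.96 between *Nap1l1* and *Hnrnpa1*, and -0.81 between *Eef2* and *Nap1l1*. Each of these values rests on the same 8 libraries, with their shared groups, depths and GC trend, and is a description only. With the mean profile of the 10 genes, of which each is itself a part, r was 0.94 for *Eef1b2* and for *Npm1*, and -0.35 for *Eef1a1* and -0.39 for *Eef2*. Among 8495 protein-coding genes outside the lists used here, with a mean of at least 10 CPM, the 5 whose profile was most like that mean were *Ppat* (r = 0.994), *Tprkb* (0.989), *Hspa13* (0.988), *Zfp37* (0.988) and *Pgk1* (0.987). By Spearman's rho 0 of these 5 were in the first 5.

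When the depletions were compared directly, 0 of the 10 mRNAs passed in edgeR, which called 0% of all genes, or in DESeq2, which called 0.00909%. An unadjusted P under 0.05 was reached by 1 of the 10, *Nap1l1*, against 6.25% of all genes. The median log2 FC of Yeats2 auxin over Zzz3 auxin was 0.11, beside -0.01 over all genes. *Hnrnpa1* was at 0.53 (SE 0.26), *Tpt1* at 0.45 (SE 0.21) and *Nap1l1* at 0.38 (SE 0.17), each with an edgeR adjusted P of 0.779. Values for *Eef1g* were close in both depletions, with a direct log2 FC of -0.11 (SE 0.15, edgeR adjusted P = 0.883). For *Tpt1* alone all Yeats2 auxin libraries lay above those of Zzz3 auxin (1 of 10, against 5.25% of all genes), and for 0 of the 10 all lay below (5.82% of all genes). Missing the threshold does not show that the depletions acted alike on these mRNAs.

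Counting of uniquely aligned reads bears on several of these levels, since many of the genes have processed pseudogenes. To measure this, every 50-base window of each gene's principal coding transcript was searched in the transcripts of other annotated genes. The share of windows found elsewhere was 72.4% in *Nap1l1*, 64.3% in *Eef1g*, 60.6% in *Eef1a1*, 46.4% in *Hnrnpa1*, 42.0% in *Tpt1* and 40.9% in *Npm1*. It was 20.7% in *Pabpc1*, 17.3% in *Eef1d*, 7.86% in *Eef2* and 5.98% in *Eef1b2*. The study's methods give paired reads of 100 bases, and windows of that length were shared less often. Their share was 64.2% in *Nap1l1*, 49.4% in *Eef1g*, 26.7% in *Eef1a1*, 42.2% in *Hnrnpa1*, 39.3% in *Tpt1* and 22.1% in *Npm1*. In the remaining genes it was 0.0669% (*Eef2*) to 9.76% (*Eef1d*). Reads from shared windows can be dropped as not unique or placed on a copy, so levels of the first 6 genes are uncertain, and copies outside the annotation were not counted in these shares.

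**Figure D4:**
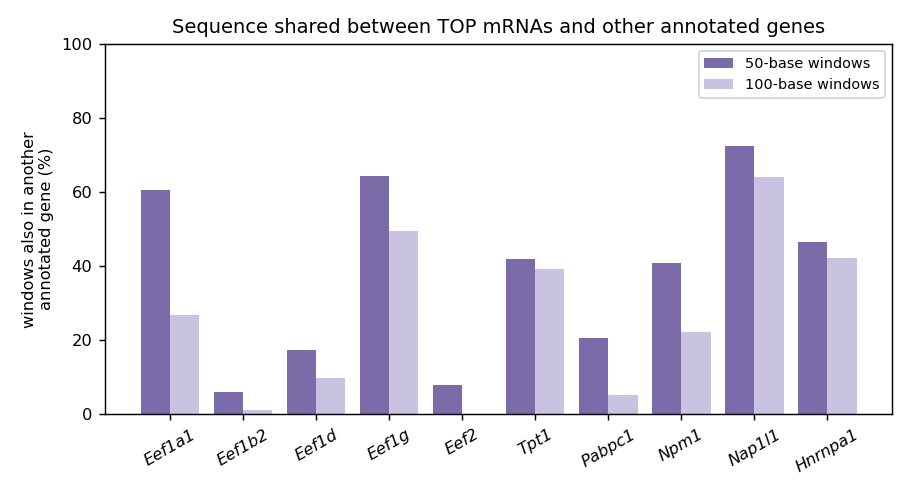
Bars give, for each of the 10 genes, the percentage of 50-base (dark) and 100-base (light) windows of its principal coding transcript that also occur in a transcript of another annotated gene (linear axis from 0 to 100). Nap1l1, Eef1g and Eef1a1 stand highest with 50-base windows, at 72.4, 64.3 and 60.6%, while Eef2 and Eef1b2 stand below 10%.

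For *Eef1g* the 5 annotated genes that share its windows are all pseudogenes, and their summed level was 3.06 and 2.18 CPM in Control, 2.46, 2.09 and 3.41 CPM in Zzz3 auxin, and 3.60, 2.32 and 2.93 CPM in Yeats2 auxin. These sums were a small part of the *Eef1g* level in every library, and the groups overlapped. For *Tpt1* the 5 pseudogenes summed to 2.81 and 2.09 CPM in Control, 4.11, 3.26 and 1.27 CPM in Zzz3 auxin, and 1.90, 3.55 and 2.37 CPM in Yeats2 auxin. Here the copies reached a sizeable fraction of the low *Tpt1* level itself.

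Genes annotated inside or across the 10 loci were checked as well. *Snora31*, a small nucleolar RNA gene inside an intron of *Tpt1*, had 9.77 and 6.62 CPM in Control, 5.68, 8.50 and 4.15 CPM in Zzz3 auxin, and 6.50, 7.49 and 6.57 CPM in Yeats2 auxin. In counts this is near *Tpt1*, but CPM is not scaled by length and *Snora31* is far shorter. Its log2 FC was -0.40 (SE 0.28, edgeR adjusted P = 0.424) and -0.26 (SE 0.28, edgeR adjusted P = 0.706). *Snora41*, in an intron of *Eef1b2*, was at -0.43 and -0.23 (edgeR adjusted P = 0.346 and 0.700). Gm26457, a further small nucleolar RNA gene there (ENSMUSG00000064612), was at -0.45 and -0.38, and Gm25117 inside *Nap1l1* was at -0.17 in both. *Naprt* shares 277 exon bases with *Eef1d* on the same strand and had a log2 FC of 0.67 and 0.56 (edgeR adjusted P = 0.123 and 0.270). *Ndufs1*, on the opposite strand, shares 9 exon bases with *Eef1b2* and was at -0.27 and -0.20 (edgeR adjusted P = 0.178 and 0.407). None of these passed. What a small nucleolar RNA level means depends on the RNA selected, on which the labels disagree, and the strand option used in counting is not stated.

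To set the 10 genes beside the rest of their class, 79 ribosomal protein genes were followed in the same fit. In Zzz3 auxin 7 of them passed as lower and 0 as higher, where 0.257% of all genes were called lower. Among them were *Rpl13* (log2 FC -1.11), *Rpl39* (-1.10), *Rpl31* (-1.08), *Rpl26* (-1.05), *Rps24* (-0.92) and *Rpl15* (-0.82), with edgeR adjusted P from 0.0183 to 0.0479. In Yeats2 auxin 3 passed as lower and 0 as higher (0.114% and 0.331% of all genes did), namely *Rpl13* (log2 FC -1.09, edgeR adjusted P = 0.0204), *Rpl26* (-1.0, 0.0382) and *Rps24* (-0.88, 0.0241). The median log2 FC over the list was -0.50 and -0.37, with 65 of 79 genes below 0 in each comparison. The count of called ribosomal protein genes changed widely with the setting, from 0 to 34 with ZZZ3 depleted and from 0 to 26 with YEATS2 depleted, and was 0 in both without Control replicate 1 and Zzz3 auxin replicate 3. The fit without those libraries keeps a lone control and has less power, and the part of the GC trend in these calls was not tested. Windows shared with other genes were searched for the 10 genes only, so how far unique alignment limits the ribosomal protein counts was not measured. No difference between these lists was tested.

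Of 15 further TOP mRNAs outside both groups, 0 passed in edgeR in either depletion, 3 and 1 had an unadjusted P under 0.05 (against 21.7% and 14.6% of all genes), and DESeq2 called 1 in each (against 7.47% and 3.15% of its genes). The share of 3 in 15 is near that of all genes, and these background shares hold for the next lists too. The median log2 FC of the 15 was -0.12 and 0.04, with 9 and 7 of them below 0, while the genes named next were all below 0. Every depleted library lay below both controls for 5 and 4 of the 15, against 18.9% and 21.0% of all genes. For 1 and 5 of the 15 every depleted library lay above both controls, against 16.8% and 19.3% of all genes. *Naca*, which encodes the alpha subunit of the nascent polypeptide-associated complex, was at 193 and 183 CPM in Control, 137, 129 and 157 CPM in Zzz3 auxin, and 119, 132 and 130.2 CPM in Yeats2 auxin. As for *Eef1g*, all 6 depleted libraries lay below both controls, and the log2 FC was -0.41 (edgeR adjusted P = 0.0921) and -0.56 (edgeR adjusted P = 0.0693). *Eif3e*, a subunit of initiation factor eIF3, was at -0.38 and -0.24 (edgeR adjusted P = 0.108 and 0.364), and *Rack1*, a ribosome-bound scaffold, at -0.16 and -0.37 (edgeR adjusted P = 0.727 and 0.481).

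A further list of 25 genes mixed elongation and termination factors, some of them mitochondrial, with enzymes that modify such factors and other associated proteins. Of these 25, 0 passed in edgeR or in DESeq2 in either depletion, and 6 and 2 had an unadjusted P under 0.05. As a list they had a median log2 FC of -0.07 and 0.01. *Eef2k*, the kinase that inhibits eEF2, was at 0.48 and 0.07 (edgeR adjusted P = 0.229 and 0.913). Close relatives of the 10 genes were tested for 13 of 17, of which 0 passed in edgeR, 1 had an unadjusted P under 0.05 in each depletion, and DESeq2 called 1 in Zzz3 auxin and 0 in Yeats2 auxin. *Hnrnpa2b1*, the paralogue closest in role to *Hnrnpa1*, had 1715 and 1064 CPM in Control, 984, 1236 and 461 CPM in Zzz3 auxin, and 1402, 1410.0 and 1226 CPM in Yeats2 auxin. Its highest and lowest libraries were those of *Hnrnpa1*, Control replicate 1 and Zzz3 auxin replicate 3, and its log2 FC was -0.64 and -0.05 (edgeR adjusted P = 0.300 and 0.965). *Pabpc4* was at -0.29 and -0.04, *Npm3* at 0.16 and 0.18 and *Nap1l4* at -0.14 and -0.16, none of them past the threshold. *Eef1a2*, the tissue-restricted form of eEF1A, was at most at 0.268 CPM in any library and was not tested.

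Finally, 32 genes that regulate TOP mRNAs or the mTOR pathway had a median log2 FC of 0.00 and -0.03. In edgeR 1 of them rose in Zzz3 auxin, where 0.496% of all genes were called higher, and 0 passed in Yeats2 auxin, with 11 and 6 at an unadjusted P under 0.05 (21.7% and 14.6% of all genes) and 4 and 2 called by DESeq2 (7.47% and 3.15% of its genes). The gene that rose was *Sesn2*, a stress-induced inhibitor of mTOR complex 1, which was at 71.3 and 94.6 CPM in Control, 153, 148 and 200.3 CPM in Zzz3 auxin, and 153, 129 and 155 CPM in Yeats2 auxin. All 6 depleted libraries lay above both controls, and the log2 FC came to 1.01 with ZZZ3 depleted (SE 0.17, edgeR adjusted P = 0.0359) and to 0.81 with YEATS2 depleted (edgeR adjusted P = 0.0728). The call of *Sesn2* in Zzz3 auxin, like the ribosomal protein calls, was lost without Control replicate 1 and Zzz3 auxin replicate 3. That fit keeps a lone control and has less power, so it cannot tell an effect of the GC trend on these calls from the loss of libraries. *Eif4ebp1*, an mTOR target that represses cap-dependent initiation, was at 0.78 and 0.46 (edgeR adjusted P = 0.0790 and 0.309), *Mtor* at 0.34 and 0.24 (edgeR adjusted P = 0.175 and 0.431) and *Larp1* at 0.21 and 0.08 (edgeR adjusted P = 0.401 and 0.816). The regulators named here all lay above 0 and do not stand for the list. Of the 32 genes, 16 and 18 had a log2 FC below 0, against 8569 and 8954 of the 17532 genes tested.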

How the data were processed

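RNA of 8 mouse ESC samples was sequenced, per the protocol after ribosomal RNA depletion of total RNA, while the labels give polyA RNA as the molecule. The deposited values are raw counts per gene, 1 table per library. According to the methods and processing notes, the authors trimmed reads, removed ribosomal RNA sequences, aligned to mm10 with STAR 2.5.3a and counted uniquely aligned reads with HTSeq 0.6.1p1 in union mode. Rows of unassigned reads were left out. Symbols and transcripts came from GENCODE vM21 (GRCm38, the assembly of mm10), which matched 55141 of 55401 identifiers. The GC content of a gene was that of its longest annotated transcript.

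Counts were analysed with edgeR 4.0.16 in R 4.3.3: filterByExpr, TMM scaling, 1 robust quasi-likelihood fit of all 8 libraries, two-sided P values adjusted by Benjamini and Hochberg over 17532 genes, and a call at an adjusted P under 0.05. CPM values are TMM-scaled. Each SE was taken as |log2 FC| over the root of its F statistic. DESeq2 1.42.0 was an alternative and is the tool of the study. Other alternatives were median-of-ratios and upper-quartile factors, dropping the filter, filtering at a mean of 1 CPM, only the compared groups, the replicate number as a block, a correction for GC content and length (lowess span 0.3), each library left out in turn, and Control replicate 1 and Zzz3 auxin replicate 3 left out together. The pipeline was tested on simulated counts with no GC trend and with larger changes than that of *Eef1g*. That test does not check calls that depend on the GC trend. Tables were summarised with pandas 2.3.3 and numpy 2.4.6, and drawn with matplotlib 3.10.9, under Python 3.11.15.

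The rule for names took all 10 genes, from every other list the genes called against control (up to 6) and 12 fixed genes, genes within the 10 loci with a mean of at least 1 CPM, and the 5 genes of most similar profile. The genes, lists and alternatives were chosen with earlier results of these data known. A few items are not reported here.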

Additional observations from a re-analysis of the deposited data

How the results depend on the processing

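The fit gave 0 calls among the 10 genes in each comparison. In Zzz3 auxin against control the count was 1 with DESeq2 (*Eef1g*), 2 without a filter (*Eef1g* and *Nap1l1*), 1 with the GC and length correction (*Eef1g*) and 0 to 1 with single libraries left out (*Nap1l1* without Zzz3 auxin replicate 2, *Eef1g* without Zzz3 auxin replicate 3). In Yeats2 auxin against control it was 1, *Eef1g* each time, with DESeq2, without a filter, with only the compared groups, with the block and only those groups, and with the GC and length correction, and 0 to 1 with single libraries left out (*Eef1g* without Zzz3 auxin replicate 1 or 3). The direct comparison gave 0 throughout. The median log2 FC in Zzz3 auxin was -0.41 to -0.24 with single libraries left out (lowest without Zzz3 auxin replicate 2, highest without Zzz3 auxin replicate 1), -0.18 with the GC and length correction and -0.17 without Control replicate 1 and Zzz3 auxin replicate 3. The median log2 FC in Yeats2 auxin ranged from -0.31 (without Control replicate 2) to -0.05 (without Control replicate 1), and was -0.04 without Control replicate 1 and Zzz3 auxin replicate 3. Of 540 values of single genes under an alternative, 500 kept direction and side of the threshold, 13 newly passed it and 27 reversed, all 27 short of the threshold.

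Reversed values in Zzz3 auxin were, without both of those libraries, -0.22 for *Eef1d* and -0.32 for *Eef2*, with the GC and length correction -0.09 for *Eef2*, and with the block and only the compared groups -0.00 for *Eef1d*. With single libraries left out, *Eef1d* ranged from -0.13 to 0.30, *Eef2* from -0.12 to 0.61 and *Pabpc1* from -0.13 to 0.25. In Yeats2 auxin they were, without both libraries, -0.04 for *Eef1a1* and *Eef1d*, 0.20 for *Tpt1*, 0.06 for *Pabpc1* and 0.13 for *Nap1l1* and *Hnrnpa1*, and with the correction 0.10 for *Nap1l1*. With single libraries left out, the range was -0.05 to 0.25 for *Eef1a1*, -0.06 to 0.37 for *Eef1d*, -0.42 to 0.30 for *Eef2*, -0.40 to 0.18 for *Tpt1*, -0.33 to 0.05 for *Pabpc1*, -0.30 to 0.12 for *Nap1l1* and -0.48 to 0.12 for *Hnrnpa1*. In the direct comparison *Eef1g* was at 0.09 without both libraries and from -0.26 to 0.08 without single ones. The cause of these changes was not tested.

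The correlation of deviations from group means was -0.172 to 0.196 between same-numbered samples and -0.214 to 0.214 between differently numbered ones. With 2 Control libraries their deviations mirror each other, so these values cannot decide whether the samples were paired. With the replicate number as a block, 0 of the 10 genes passed in each comparison, *Eef1g* was at -0.70 (edgeR adjusted P = 0.112) in Zzz3 auxin and -0.79 (edgeR adjusted P = 0.0950) in Yeats2 auxin, *Hnrnpa1* in Yeats2 auxin was at 0.00, and with only the compared groups *Eef2* in Yeats2 auxin was at 0.07. There were 2 control libraries, and counts of *Tpt1*, the lowest of the 10 genes, were the most limited by depth. Where a library was left out of Control, the lone control was assumed to vary like the other groups.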
